A study of Mus musculus with 4 samples.

Results

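The proteasome subunit genes examined here are the mouse protein-coding genes whose symbols start with Psma, Psmb, Psmc, Psmd, Psme, Psmf or Psmg, without Psmb8 and Psmb9. The members were taken by symbol, with no peak value in the rule, from a RefSeq gene table of mm10 (GRCm38.p6), which gave 49 members among 21883 protein-coding genes on chromosomes 1 to 19, X and Y. The study mapped where the transcription factor Runx3 sits in the genome of CD8 T cells, which were isolated from the spleens of adult wild type mice with magnetic beads against CD8a. In chromatin immunoprecipitation (ChIP), 50000000 frozen and thawed cells from 5 mice were sonicated and captured with rabbit serum against Runx3 at a dilution of 1 in 200. In CUT&RUN, in which micrococcal nuclease is tethered to the antibody and cuts out the DNA near it, 150000 fresh cells from 1 mouse were treated with the same serum at 1 in 200. A whole cell extract served as control of the ChIP peak list, and the normal serum control of CUT&RUN was not analysed here. There was 1 library per assay, the ChIP cells pooled 5 animals, and differences between the assays therefore have no replicate check and no test.

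The 26S proteasome is the protease that degrades proteins tagged with ubiquitin. Its 20S core is a barrel of outer alpha rings, which gate the entry, and inner beta rings, which carry the protease sites. The 19S particle caps the core and holds ATPases that unfold and thread the substrate, together with non-ATPase subunits that bind ubiquitin, remove it and form the lid. In CD8 T cells the proteasome also makes the peptides shown on MHC class I, supports rapid division after activation and can carry interferon-induced subunits or the PA28 activator. Runx3 is a RUNX family factor that T cells need for the CD8 lineage. RUNX proteins bind a short core, searched here as TGTGGT or as TGCGGT or as TGTGGC on both strands, and ETS factors, searched here as CCGGAA on both strands, often sit beside them in T cells.

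Promoter sequences were available from RefSeq (GRCm38.p6) for 41 of the 49 members, in 45 windows that each run from 250 bases before to 50 after a listed transcript start. Psma8, Psmb1, Psmb2, Psmb7, Psmc3, Psmd3, Psmd7 and Psmg2 were not matched. In 9 of the windows a summit, the highest point of a peak, lay in both assays. The upstream parts of 6 of these are shown 5′ to 3′ on the strand of the gene because they differ in what lies under the summits. Capitals mark RUNX cores (in these windows read as ACCGCA, the other strand of TGCGGT) and ETS motifs (CCGGAA, or TTCCGG on the other strand). Psma4 has a RUNX core and no ETS motif, and Psma6 and Psmd13 have both. Psmd11 and Psmd12 have an ETS motif and no RUNX core, and Psmc4 has neither in the bases shown. The windows not shown, those of Psma2, Psma3 and Psme3ip1, also have neither in their upstream parts. The windows lie at chr9:54950609-54950858 (plus strand), chr12:55398575-55398824 (plus), chr7:140882144-140882393 (plus), chr11:80428365-80428614 (plus), chr11:107479278-107479527 (plus) and chr7:28050093-28050342 (minus).
Psma4: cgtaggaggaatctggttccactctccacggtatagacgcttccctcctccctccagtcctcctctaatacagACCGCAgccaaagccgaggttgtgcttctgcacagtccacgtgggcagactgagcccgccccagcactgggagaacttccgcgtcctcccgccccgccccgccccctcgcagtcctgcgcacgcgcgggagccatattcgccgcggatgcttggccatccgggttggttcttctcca
Psma6: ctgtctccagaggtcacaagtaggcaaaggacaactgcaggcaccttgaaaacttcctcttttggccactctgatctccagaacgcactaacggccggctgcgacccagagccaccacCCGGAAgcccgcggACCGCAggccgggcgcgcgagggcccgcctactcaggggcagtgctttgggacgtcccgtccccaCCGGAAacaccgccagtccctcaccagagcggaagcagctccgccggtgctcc
Psmd13: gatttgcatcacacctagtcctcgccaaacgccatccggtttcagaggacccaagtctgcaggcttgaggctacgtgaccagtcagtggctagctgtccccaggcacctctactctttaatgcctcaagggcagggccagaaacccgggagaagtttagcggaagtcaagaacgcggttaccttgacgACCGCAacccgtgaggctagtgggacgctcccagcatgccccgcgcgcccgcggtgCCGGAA
Psmd11: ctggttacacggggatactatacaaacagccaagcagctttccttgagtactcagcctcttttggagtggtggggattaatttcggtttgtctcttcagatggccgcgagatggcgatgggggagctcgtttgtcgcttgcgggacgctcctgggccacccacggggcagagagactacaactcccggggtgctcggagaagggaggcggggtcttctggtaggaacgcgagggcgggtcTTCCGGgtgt
Psmd12: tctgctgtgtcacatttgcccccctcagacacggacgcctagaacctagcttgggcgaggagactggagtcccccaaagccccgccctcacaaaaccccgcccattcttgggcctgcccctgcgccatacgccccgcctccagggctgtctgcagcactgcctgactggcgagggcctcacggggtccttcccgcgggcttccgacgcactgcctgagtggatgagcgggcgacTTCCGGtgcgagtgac
Psmc4: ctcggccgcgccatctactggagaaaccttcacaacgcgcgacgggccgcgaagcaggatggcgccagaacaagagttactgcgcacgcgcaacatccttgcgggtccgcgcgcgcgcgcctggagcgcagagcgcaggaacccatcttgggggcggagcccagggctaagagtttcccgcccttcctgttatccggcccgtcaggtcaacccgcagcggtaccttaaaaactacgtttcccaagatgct

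After duplicate removal, 9532996 ChIP fragments gave a list of 13166 peaks, and 14068364 CUT&RUN fragments gave 15891. The pileup given below is the number of fragments over a summit, as the authors' peak caller wrote it, with an exact 95% Poisson interval that covers counting error only. A rank is given as the top percent of a peak's own list, so that low values are strong peaks. Pileups were not compared between the assays, which differed in cell number, freezing, control and peak threshold (q of 0.05 in ChIP, 1e-05 in CUT&RUN). In both assays peaks lay within 10 kb of all 5 T cell identity genes looked up (Cd3d, Cd3e, Cd3g, Cd8a, Cd8b1). Of all protein-coding genes, 40.2% had a ChIP summit and 45.1% a CUT&RUN summit within 10 kb. Within 1 kb of a gene end, ChIP had a summit at 2 of the 5 genes and CUT&RUN at all 5. There, 22.9% of all protein-coding genes had a ChIP summit and 27.2% a CUT&RUN summit. Neither assay had a peak within 10 kb of the myeloid genes Csf1r, Lyz2 and Adgre1 or the erythroid genes Hba-a1, Hba-a2 and Gata1, while both had peaks within 10 kb of the B cell gene Cd79a but not of Ms4a1, another B cell gene. The part of other cells in the values below was not tested. Occupancy near a gene is not its expression.

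Runx3 peaks were found at many proteasome genes, mostly at the start of the gene, and most of these peaks were weak within their lists. A summit lay within 1 kb of a gene end in 19 of 49 members in ChIP (38.8%, exact 95% interval 25.2 to 53.8) and in 22 in CUT&RUN (44.9%, 30.7 to 59.8). Across all protein-coding genes 22.9% had a ChIP summit and 27.2% a CUT&RUN summit there. Both assays had such a summit in 12 members (24.5%, 13.3 to 38.9), against 18.3% of all protein-coding genes. Either assay had one in 29 members (59.2%, 44.2 to 73), against 31.8% of all genes. ChIP alone had one in 7 members (14.3%), against 4.65% of all genes, and CUT&RUN alone in 10 (20.4%), against 8.87%. Within the gene span extended by 10 kb on each side, 28 members were occupied in ChIP (57.1%, against 40.2% of all genes), 32 in CUT&RUN (65.3%, against 45.1%) and 20 in both (40.8%, against 34.9%). In 8 members (16.3%, against 5.34%) the only summits there were from ChIP, in 12 (24.5%, against 10.2%) they were from CUT&RUN, and 40 (81.6%, against 50.5%) had a summit of either assay. All protein-coding genes include genes that are silent in T cells, expression was not measured here, and its part in these shares was not tested. Members had a median length of 12.3 kb against 17.2 kb for all protein-coding genes, and 19 of the 49 (38.8%) had an end of another protein-coding gene within 1 kb of an end of their own, against 24.8% of all.

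**Figure D1:**
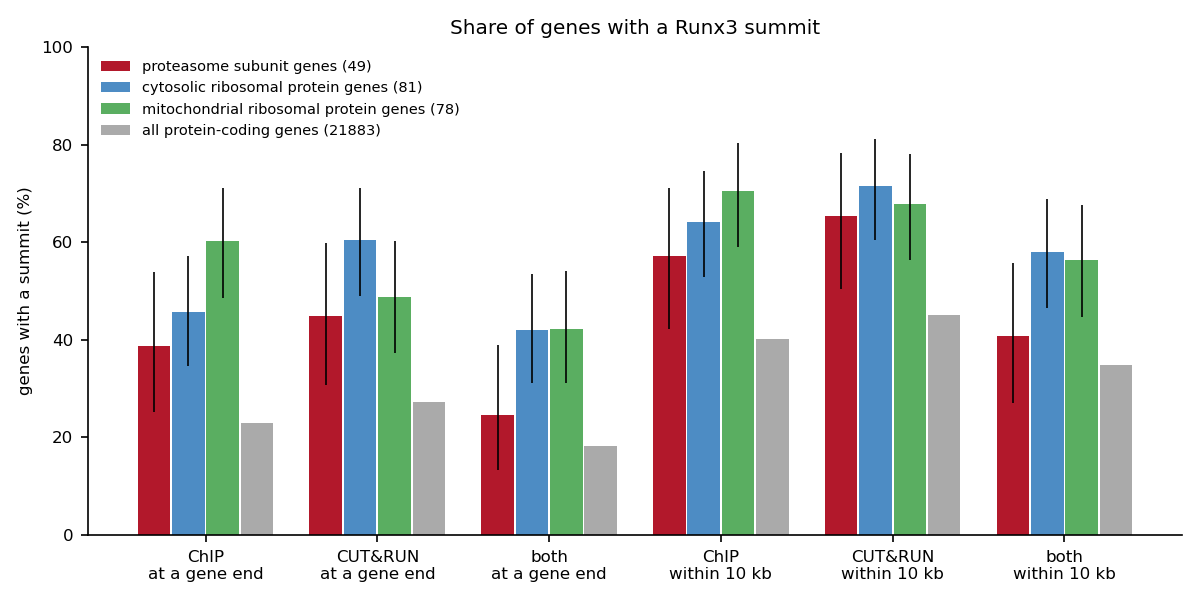
Share of genes (%, vertical axis) with a Runx3 summit within 1 kb of a gene end or within the span plus 10 kb, for 49 proteasome subunit genes, 81 cytosolic and 78 mitochondrial ribosomal protein genes and all 21883 protein-coding genes; error bars are exact 95% binomial intervals. Proteasome genes stand at 38.8% in ChIP, 44.9% in CUT&RUN and 24.5% in both at gene ends, against 22.9%, 27.2% and 18.3% of all protein-coding genes.

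With the stronger peaks alone, the shares of proteasome genes lay closer to those of all genes. In the upper 50% of each list alone, 7 members (14.3%, 5.94 to 27.2) kept a ChIP summit at a gene end, against 12.8% of all genes, and 10 (20.4%, 10.2 to 34.3) kept a CUT&RUN summit, against 14.3%. In both assays at once 5 members (10.2%) did, against 8.33%. When ChIP peaks were held to the CUT&RUN threshold of 1e-05, 8 members (16.3%) had a ChIP summit at a gene end, against 15.2%, and 6 (12.2%) had one in both assays, against 13.2%. The best ChIP peak at a member's end had a median pileup of 10 over 19 members (lowest 8, highest 23) against a median of 12 over 5022 protein-coding genes, and a median rank of 68.2% against 45%. In CUT&RUN the median pileup was 19 over 22 members (lowest 12, highest 52) against 25 over 5945 genes, and the median rank was 62.5% against 47.9%. No gene end peak of a member reached the top 10% of either list, where 9.22% of the best gene end peaks of all protein-coding genes stood in ChIP and 7.05% in CUT&RUN. Whether weak peaks were missed in 1 of the assays was not tested.

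Ribosomal protein genes, which also encode large complexes that all cells use, were set beside them. Beside 38.8% of proteasome genes in ChIP and 44.9% in CUT&RUN, cytosolic ribosomal protein genes had gene end summits in 37 of 81 cases in ChIP (45.7%, 34.6 to 57.1) and 49 in CUT&RUN (60.5%, 49 to 71.2), and mitochondrial ribosomal protein genes in 47 of 78 (60.3%, 48.5 to 71.2) and 38 (48.7%, 37.2 to 60.3). In both assays the share was 24.5% for proteasome genes, against 42% for cytosolic (31.1 to 53.5) and 42.3% for mitochondrial ribosomal protein genes (31.2 to 54). Of the genes with a gene end summit in either assay, both assays had one in 12 of 29 proteasome genes (41.4%, 23.5 to 61.1), 34 of 52 cytosolic ribosomal (65.4%, 50.9 to 78), 33 of 52 mitochondrial ribosomal (63.5%, 49 to 76.4) and 57.5% of all 6963 protein-coding genes. The intervals of the gene families overlap, which does not settle whether the shares differ, and the difference was not tested.

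**Figure D2:**
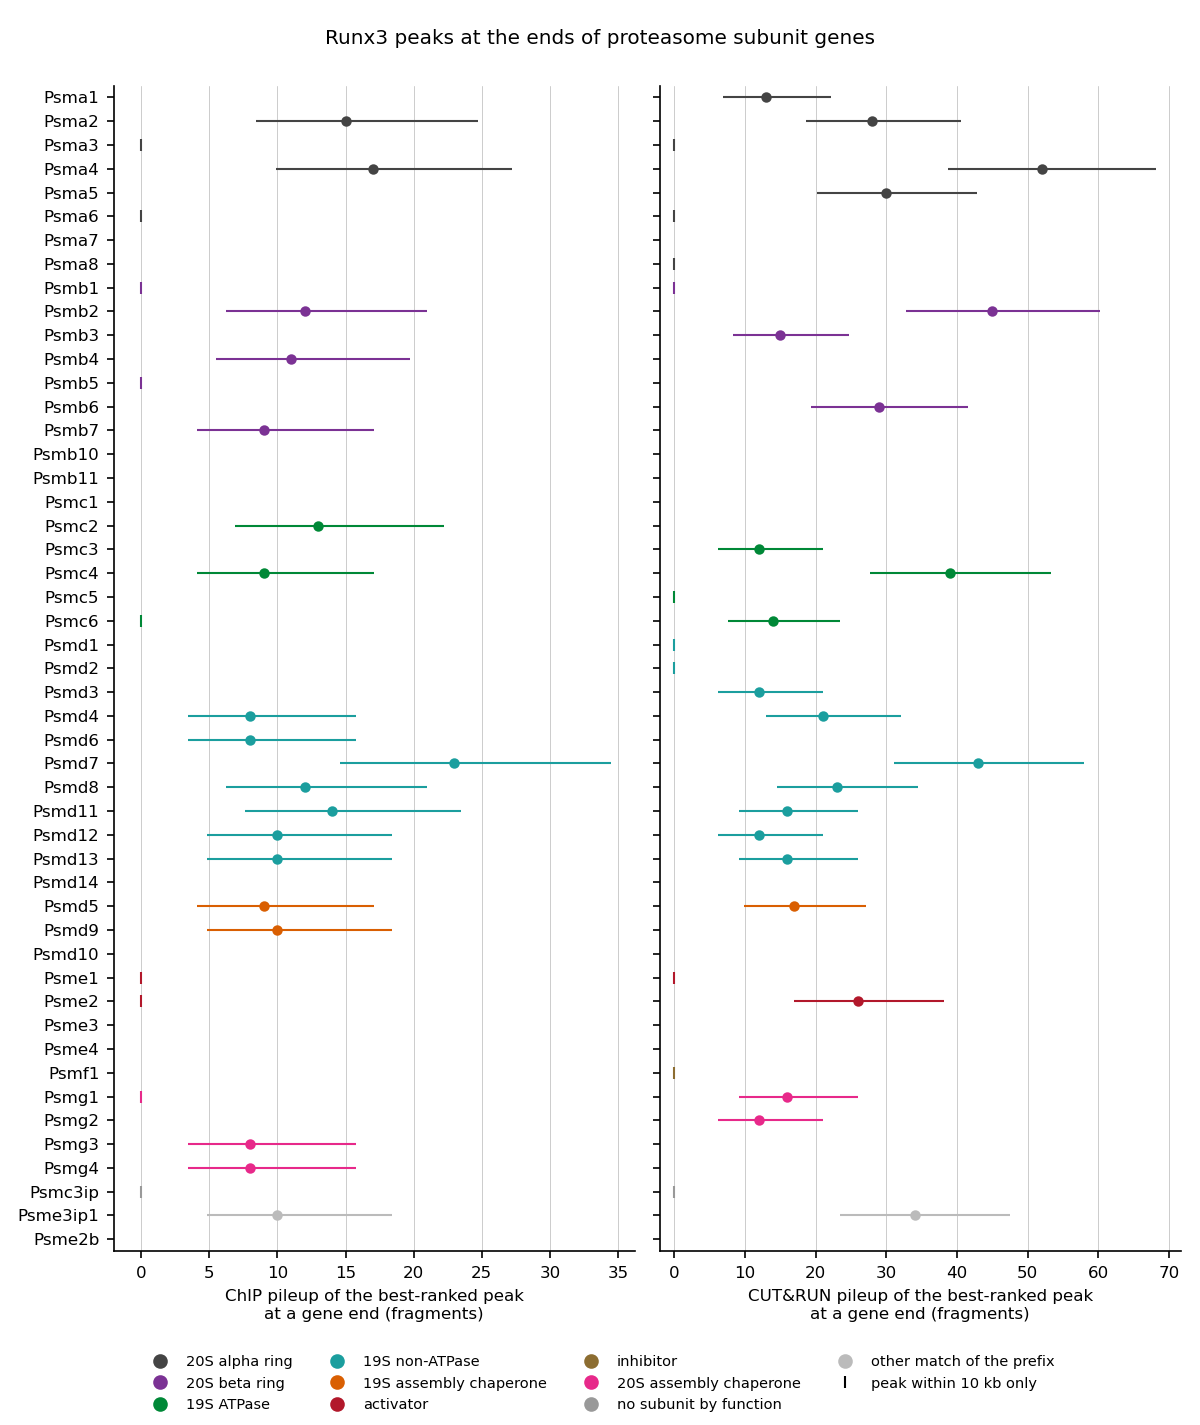
Pileup (fragments, horizontal axis) of the best-ranked peak within 1 kb of a gene end for each of the 49 members, in ChIP (left) and CUT&RUN (right), coloured by role; bars are exact 95% Poisson intervals, a tick at 0 marks a member with peaks within 10 kb but none at an end, and an empty row has no peak. ChIP values run from 8 to 23 and CUT&RUN values from 12 to 52, with Psmd7 highest in ChIP and Psma4 in CUT&RUN.

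Among the alpha ring genes, 2 of 8 had a gene end summit in ChIP and 4 in CUT&RUN. The shares were 25% and 50%, against 22.9% and 27.2% of all protein-coding genes. Psma4 had the highest CUT&RUN pileup of all members at a gene end. In ChIP the pileup was 17 (9.9 to 27.2, top 24.5%) and in CUT&RUN it was 52 (38.8 to 68.2, top 12.9%), and both summits fell on the same base, chromosome 9, 54950693, which is 166 bp before the listed start (the start itself is base 0). The RUNX core printed above for Psma4 spans bases -177 to -172, with its centre 8.5 bp from that summit. The genes Hykk and AY074887 also have an end within 1 kb of it. Psma2 had a ChIP pileup of 15 (8.4 to 24.7) at 16 bp after its start, while CUT&RUN had 28 (18.6 to 40.5) at 16 bp before it, and a weaker ChIP peak (pileup 9) lay 430 bp before the start. These summits also lie within 1 kb of Mrpl32, a mitochondrial ribosomal protein gene. In CUT&RUN only, Psma5 had a pileup of 30 (20.2 to 42.8) at 247 bp after its start and Psma1 a pileup of 13 (6.92 to 22.2) at 100 bp before it.

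Psma6 and Psma3, a further pair of alpha ring genes, had peaks at listed starts that lie inside the annotated span, so that these do not count as gene end peaks. At Psma6 the ChIP summit had a pileup of 24 (15.4 to 35.7, top 9.66%) and lay 131 bp before an inner start, and the CUT&RUN summit had 29 (19.4 to 41.6, top 34.6%) and lay 94 bp before it. In the sequence printed for Psma6, the ChIP summit falls in the ETS motif at bases -132 to -127, and the RUNX core spans bases -118 to -113, between both summits. The peaks at Psma3 lay 2 bp before the listed start in ChIP (pileup 10, 4.8 to 18.4) and 61 bp before it in CUT&RUN (pileup 46, 33.7 to 61.4, top 18.4%), over 5 kb from an end of the span. Both genes also had peaks away from listed starts. Psma6 had weaker ChIP peaks (pileups 13 and 8) inside the gene, 5618 and 6214 bp from its end, and Psma3 had overlapping ChIP and CUT&RUN peaks (pileups 10 and 14) outside the gene, 3828 and 3869 bp from its end. Psma7 had no summit within 10 kb in either assay. Psma8, which is known for its use in testis, had a single CUT&RUN peak (pileup 25, 16.2 to 36.9) inside the gene and no ChIP peak within 10 kb.

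Beta ring genes had gene end summits in 3 of 9 cases in ChIP and in 3 in CUT&RUN, and Psmb2 was the 1 they shared. The share was 33.3% in each assay, against 22.9% of all protein-coding genes in ChIP and 27.2% in CUT&RUN. Psmb2 had 12 fragments at its ChIP summit (6.2 to 21, top 48.7%) and 45 at its CUT&RUN summit (32.8 to 60.2, top 15.2%), the summits being 75 and 123 bp outside the gene. Among the genes of the catalytic sites of the constitutive core, Psmb6 had a CUT&RUN peak alone (pileup 29, 19.4 to 41.6, 50 bp before the listed start), Psmb7 a ChIP peak alone (pileup 9, 4.12 to 17.1) and Psmb5 no gene end peak. The nearest ChIP summit to Psmb5 (pileup 9) lay 8079 bp away, within 1 kb of an end of 4931414P19Rik. Psmb4 had a ChIP pileup of 11 (5.49 to 19.7) at 23 bp before its start, and Psmb3 a CUT&RUN pileup of 15 (8.4 to 24.7) at 168 bp before its start, also within 1 kb of Pcgf2. Psmb1 had peaks of both assays 1686 and 1653 bp from its end (pileups 18 and 21), which lay 74 and 41 bp from an end of Tbp, the gene of the TATA-binding protein. Psmb10, whose product replaces the Psmb7 subunit in the interferon-induced core, and Psmb11, a thymus-specific subunit, had no summit within 10 kb in either assay, and the summits nearest to Psmb10 lay 34.6 kb away in each.

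In the ATPase ring of the 19S particle, 2 of 6 genes had a gene end summit in ChIP, 3 in CUT&RUN and 1, Psmc4, in both. The shares were 33.3%, 50% and 16.7%, against 22.9%, 27.2% and 18.3% of all protein-coding genes. The ChIP summit of Psmc4 had 9 fragments (4.12 to 17.1, top 81.1%) and its CUT&RUN summit 39 (27.7 to 53.3, top 20.9%), with summits 56 and 48 bp before the start, 8 bp apart. The stretch printed for Psmc4 holds no RUNX core and no ETS motif, and the TGACG core on its other strand spans bases -51 to -47, at the CUT&RUN summit. Psmc2 had ChIP peaks alone, at 31 bp before the outer of its listed starts (pileup 13, 6.92 to 22.2, also within 1 kb of Dnajc2) and 39 bp after the inner (pileup 11, 5.49 to 19.7). CUT&RUN alone had peaks at Psmc3 (pileup 12, 6.2 to 21) and at Psmc6 (pileup 14, 7.65 to 23.5, 92 bp before the start), and further peaks of both assays near Psmc6 lay within 1 kb of an end of Styx. Psmc5 had a CUT&RUN summit 9954 bp from its end, which lay 46 bp from an end of Tcam1 and within 1 kb of Smarcd2, and Psmc1 had none within 10 kb in either assay.

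The non-ATPase subunits of the 19S particle had gene end summits most often of the roles with at least 4 members in ChIP, in 7 of 11 genes, with 7 also in CUT&RUN and 6 in both. These are 63.6%, 63.6% and 54.5%, against 22.9%, 27.2% and 18.3% of all protein-coding genes. Their exact interval for both, 23.4 to 83.3%, includes the share of all 49 members, to which these genes belong, but not that of all genes. The interval does not allow for the role being picked as the highest, and the difference was not tested. Psmd7, a lid subunit that pairs with the deubiquitinase Psmd14, led all members with a gene end peak in both assays by mean rank. Its ChIP pileup was 23 (14.6 to 34.5, top 11.8%) and its CUT&RUN pileup 43 (31.1 to 57.9, top 17.6%), with summits 136 and 42 bp inside the gene, at bases 107588346 and 107588440 of chromosome 8. Psmd8 had 12 (6.2 to 21) in ChIP and 23 (14.6 to 34.5) in CUT&RUN, 97 bp after and 12 bp before its start, also within 1 kb of Catsperg1. At Psmd11 the ChIP pileup was 14 (7.65 to 23.5) and the CUT&RUN pileup 16 (9.15 to 26), 31 bp before and 12 bp after the start, and the ETS motif printed for this gene lies between them at bases -10 to -5. Psmd12 had 10 (4.8 to 18.4) in ChIP, 14 bp before the start and within the ETS motif at bases -16 to -11, and 12 (6.2 to 21) in CUT&RUN, 168 bp before the start, in peaks that did not overlap.

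Psmd13 had 10 (4.8 to 18.4) in ChIP and 16 (9.15 to 26) in CUT&RUN, with summits 28 and 39 bp before the start, between its RUNX core (bases -62 to -57) and its ETS motif (bases -6 to -1). Those summits lie 57 and 46 bp from an end of Sirt3, which encodes a mitochondrial deacetylase. A stronger ChIP peak (pileup 26, 17 to 38.1, top 8.26%) lay 2846 bp before the Psmd13 start with no CUT&RUN partner. An end of Sirt3 was nearer to that peak, at 2761 bp, so that it cannot be assigned to Psmd13. Psmd4, which encodes a ubiquitin receptor, had 8 (3.45 to 15.8) in ChIP and 21 (13 to 32.1) in CUT&RUN, with summits 571 and 22 bp before its start in peaks that did not overlap. In ChIP only, Psmd6 had a pileup of 8 (3.45 to 15.8), and in CUT&RUN only, Psmd3 had peaks of 12 and 9. The large scaffold genes Psmd1 and Psmd2 had CUT&RUN peaks 5106 and 9405 bp away (pileups 38 and 28), of which that near Psmd1 lay 4057 bp from an end of 2810459M11Rik and that near Psmd2 lay 99 bp from an end of Eif4g1. Psmd14 had no summit within 10 kb in either assay.

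Of the chaperones that assemble the 19S base, Psmd5 had gene end peaks in both assays (ChIP 9, 4.12 to 17.1, 325 bp outside the gene, and CUT&RUN 17, 9.9 to 27.2, 53 bp outside it), Psmd9 had 1 in ChIP (pileup 10, 4.8 to 18.4), and Psmd10, also known as gankyrin, had no summit within 10 kb, with the nearest 405 kb away in each assay. In either assay these were 2 of 3 genes (66.7%, 9.43 to 99.2), against 31.8% of all protein-coding genes. The 4 chaperone genes of the 20S core each had a gene end peak in 1 assay (exact 95% interval 39.8 to 100%), against the same 31.8%. None of the 4 had one in both assays, where 18.3% of all protein-coding genes did. These roles are small, and the differences were not tested. Psmg3 and Psmg4 had ChIP pileups of 8 each, and Psmg1 and Psmg2 had CUT&RUN pileups of 16 (9.15 to 26) and 12 (6.2 to 21). Psmg1 also had the strongest peaks near any member, 8470 and 8497 bp before its start and 27 bp apart, with 37 fragments in ChIP (26.1 to 51, top 2.2%) and 126 in CUT&RUN (top 1.64%). An end of Brwd1 was nearer to them, at 7341 and 7368 bp, so that these peaks cannot be assigned to Psmg1.

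Among the 4 activator genes and the inhibitor gene, none had a gene end summit in ChIP and 1 had one in CUT&RUN, where 22.9% and 27.2% of all protein-coding genes did. The exact 95% interval for 0 of 4 activators, 0 to 60.2%, includes the share of all genes. Psme1 and Psme2 encode the interferon-induced PA28 activator and are neighbours on chromosome 14. Neither had a ChIP summit at a gene end, and Psme2 had CUT&RUN pileups of 26 (17 to 38.1) and 17 (9.9 to 27.2), 562 bp before and 29 bp after the nearest of its listed starts, both within 1 kb of Rnf31, a subunit gene of a ubiquitin ligase. Between Psme1 and Psme2 a ChIP peak (pileup 10) and CUT&RUN peaks (pileups 23 and 14) lay within 1 kb of an end of Emc9. Psme3, the nuclear PA28 subunit, and Psme4, which encodes another activator, had no summit within 10 kb in either assay, nor had Psme2b. Psmf1, which encodes a proteasome inhibitor, had a CUT&RUN peak (pileup 26, 17 to 38.1) 84 bp after a listed start inside its span and no ChIP summit within 10 kb. Psme3ip1 encodes a protein that binds the nuclear activator and not a subunit. It had ChIP pileups of 10 and 10 and a CUT&RUN pileup of 34 (23.5 to 47.5), also within 1 kb of Rspry1. Psmc3ip, a meiotic recombination factor despite its symbol, had no gene end peak.

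**Figure D3:**
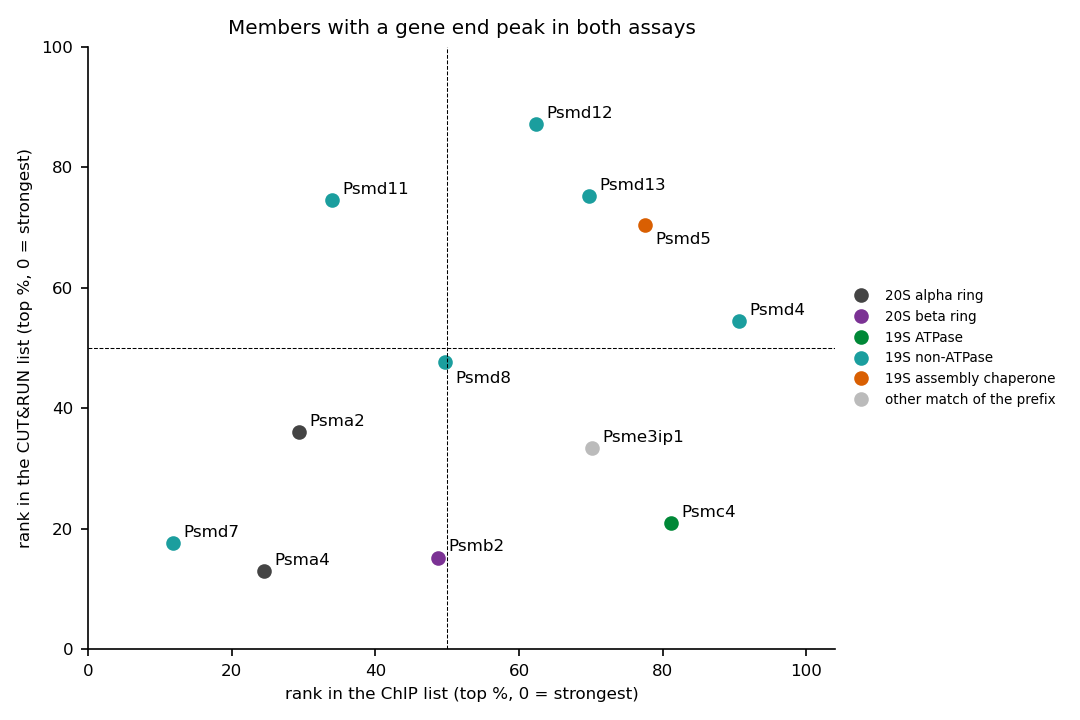
Rank of the best gene end peak in the ChIP list (horizontal, top %) and in the CUT&RUN list (vertical, top %) for the 12 members with a gene end peak in both assays, coloured by role; dashed lines mark the middle of each list. Psmd7, Psma4, Psmb2, Psma2 and Psmd8 stand in the upper 50% of both lists, and Psmd12, Psmd13, Psmd4 and Psmd5 in the lower 50% of both.

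Where both assays had gene end peaks, they mostly marked the same place. The closest summits lay a median of 45.5 bp apart over 12 members (lowest 0, highest 549), against 48 bp over 4004 protein-coding genes. Peaks overlapped in 10 of the 12 members (83.3%), against 93.2% of all genes with gene end peaks in both, which is 20.4% of the 49 members and 17.1% of all protein-coding genes. Of the gene end summits of members, 8 of 21 in ChIP and 9 of 24 in CUT&RUN lay within 1 kb of an end of another protein-coding gene as well, so that those peaks cannot be assigned to the proteasome gene alone. All backgrounds of the ChIP gene end peaks of members equalled 2.12 expected fragments, and those of CUT&RUN ran from 1.47 to 2.56.

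All gene end peaks with a known strand sat at the 5′ end. The best peak was at the 5′ end in 16 of 16 members in ChIP (exact 95% lower limit 79.4%) and 17 of 17 in CUT&RUN (80.5%), against 93.5% of 4128 and 93.8% of 4923 protein-coding genes. Within 1 kb of a listed start, 21 ChIP summits at 18 members had a median position of -28 bp, and 13 lay within 100 bp of the start. In CUT&RUN, 21 summits at 20 members had a median position of -50 bp, and 15 lay within 100 bp. Measured from listed starts, 18 of 41 members were occupied in ChIP (43.9%, against 24.5% of all genes with a listed start), 20 in CUT&RUN (48.8%, against 28.8%) and 12 in both (29.3%, against 19.7%). No nearest summit lay close to the 1 kb limit. In ChIP the nearest summits on each side of 1 kb were those of Psmd4 (571 bp) and Psmb1 (1686 bp), and in CUT&RUN those of Psmg2 (284 bp) and Psmb1 (1653 bp). At 10 kb, where Psmc5 lay close to the limit in both assays, they were Psmc3ip (9605 bp) and Psmc5 (10053 bp) in ChIP, and Psmc5 (9954 bp) and Psmb5 (10619 bp) in CUT&RUN.

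**Figure D4:**
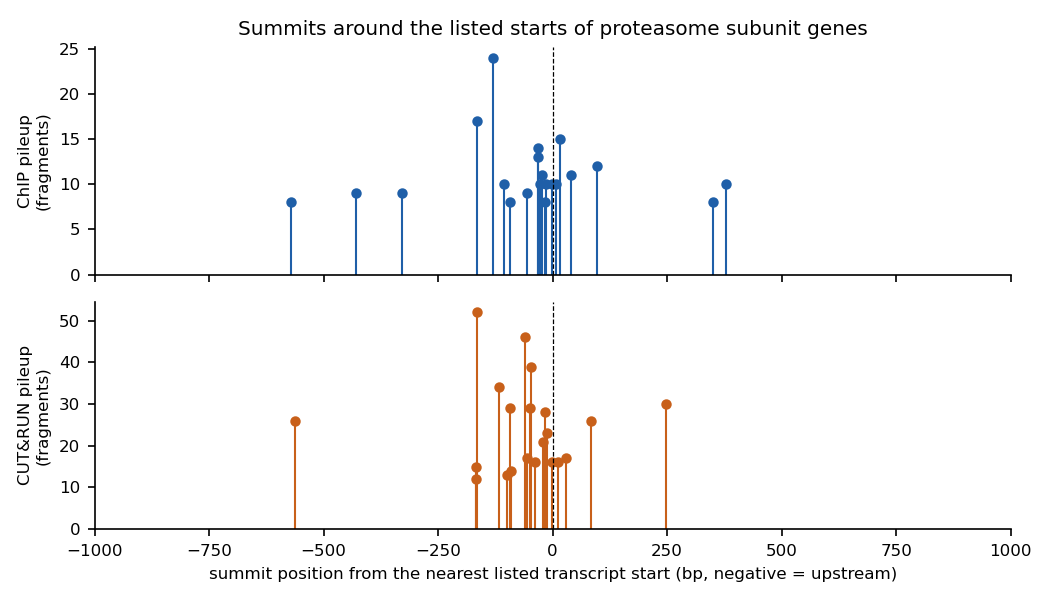
Position of each member summit within 1 kb of its nearest listed transcript start (bp, horizontal axis, negative upstream) and its pileup (fragments, vertical axis), in ChIP (top) and CUT&RUN (bottom). Of the 21 summits in each assay, 13 in ChIP and 15 in CUT&RUN lie within 100 bp of the start.

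The share of windows with a RUNX core was close to that of all promoters, and the share with an ETS motif was higher. A RUNX core was found in 16 of 45 member windows (35.6%, 21.9 to 51.2), against 35.9% of 21262 windows of protein-coding genes and 36.9% of all 32851 windows of this length. ETS motifs were found in 23 of 45 (51.1%, 35.8 to 66.3), against 18.7% and 14.9%, and the core TGACG of cyclic AMP response elements in 19 (42.2%, 27.7 to 57.8), against 23.6% and 20.8%. The NFY motif CCAAT was in 33.3% of member windows against 38.2% of protein-coding windows, the SP motif GGGCGG in 53.3% against 46.2%, the E-box CACGTG in 11.1% against 7.84%, and the AP-1 core TGAGTCA in 2.22% against 4.66%. No motif was tested, the motifs were searched on both strands, TGTGGC and TGTGGT share their first bases but cannot match at the same place, and windows of 1 gene can overlap. Median GC content was 57.3% in member windows and 56.3% in protein-coding windows. The median number of cytosines followed directly by a guanine differed more, with 19 in member windows, 13 in protein-coding windows and 7 in all windows. The ETS motif and the TGACG core each hold such a pair, as do the SP motif, the E-box and the RUNX core TGCGGT. The part of this count in the motif shares was not tested.

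Among the 25 member windows with a summit of either assay inside, 7 had a RUNX core (28%, 12.1 to 49.4), against 42.4% of 5054 protein-coding windows with a summit. Of the 20 member windows without a summit, 9 had a core (45%, 23.1 to 68.5), against 33.8% of 16208. ETS motifs were in 14 of the 25 occupied member windows (56%, against 37.1%) and 9 of the 20 others (45%, against 13%). The TGACG core was in 14 of the 25 (56%, against 39.9%) and 5 of the 20 (25%, against 18.5%). The other motifs are not split this way here. Within 50 bp of the summit, for summits at least that far inside a window, a RUNX core was found at 3 of 12 ChIP summits (25%, 5.49 to 57.2, against 33%) and 5 of 17 CUT&RUN summits (29.4%, 10.3 to 56, against 25.7%). An ETS motif was there at 6 of the 12 ChIP summits (50%, 21.1 to 78.9, against 19.1%) and 4 of the 17 CUT&RUN summits (23.5%, 6.81 to 49.9, against 16.3%). The TGACG core was there at 4 of the 12 (33.3%, 9.92 to 65.1, against 18.8%) and 3 of the 17 (17.6%, 3.8 to 43.4, against 18.3%). A match of these letters is not evidence of binding, and a window without them may hold a variant of the site.

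**Figure D5:**
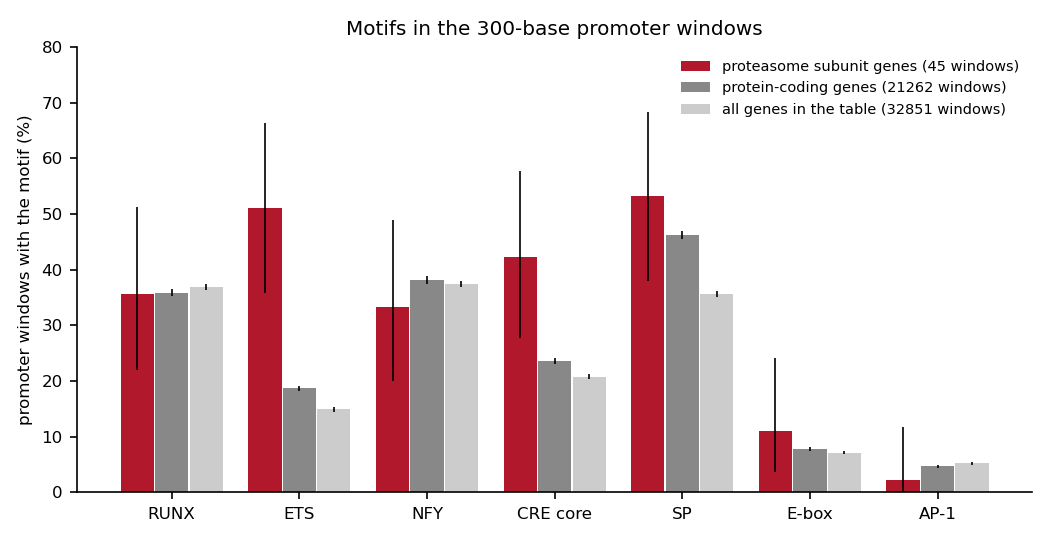
Share of 300-base promoter windows (%, vertical axis) that hold each motif on either strand, for 45 windows of proteasome subunit genes, 21262 of protein-coding genes and all 32851; error bars are exact 95% binomial intervals. The RUNX bars stand at 35.6%, 35.9% and 36.9%, and the ETS bars at 51.1%, 18.7% and 14.9%.

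Genes that work with the proteasome but carry other symbols were looked up as a further list. Of 18 partners, 11 had a gene end summit in ChIP, 11 in CUT&RUN and 10 in both, where 22.9%, 27.2% and 18.3% of all protein-coding genes had one. Vcp, the segregase that unfolds ubiquitin-tagged proteins, had 14 fragments in ChIP (7.65 to 23.5) and 78 in CUT&RUN (61.7 to 97.3, top 5.98%), above the gene end pileup of every member in CUT&RUN. Uchl5, a deubiquitinase of the 19S particle, had 19 (11.4 to 29.7) and 39 (27.7 to 53.3), and Rad23b, a shuttle for ubiquitin-tagged proteins, 12 (6.2 to 21) and 42 (30.3 to 56.8). The substrate receptor gene Adrm1 had 8 and 15, and Akirin2, a nuclear import factor of proteasomes, 9 and 37. Pomp, the maturation factor of the core, had no summit within 10 kb, nor had Usp14, Ecpas, Txnl1, Ubqln1 and Ubqln2. All 4 genes of the machinery that controls proteasome gene transcription had a CUT&RUN summit at a gene end, and 2 had a ChIP summit, where 27.2% and 22.9% of all protein-coding genes had one. Nfe2l1, the factor that raises proteasome gene transcription when proteasomes are inhibited, had 9 (4.12 to 17.1) in ChIP and 34 (23.5 to 47.5) in CUT&RUN, and Ngly1, which deglycosylates it, had 17 (9.9 to 27.2) and 20 (12.2 to 30.9). Ddi2, the protease that cleaves it, and Nfe2l2 had CUT&RUN pileups of 18 and 15 and no ChIP summit at an end.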

How the data were processed

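The aligner was Bowtie, the build mm10 and the peak caller MACS2, per the submitters' processing notes. Per the file headers, the caller's version was 2.1.1.20160309, it worked on fragments of read pairs and it kept at most 1 fragment per position. ChIP was set against the whole cell extract with a q limit of 0.05. CUT&RUN, on an alignment named for nucleosome-free fragments, had no control and a limit of 1e-05. The aligner's version and the fragment length limit are not given in the sources used here. Both lists come from single libraries. In the deposited lists the pileup is a coverage signal in fragments, fold enrichment is a ratio over expected background, and p-values and q-values stand as −log10, all written by the authors' caller and used here only within a list. Duplicate removal took 80.3% of ChIP fragments and 21.4% of CUT&RUN fragments.

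Peaks were ranked by q, then pileup, then peak number. A gene end was either end of a RefSeq span, and a summit within 1 kb of it counted. Starts and strands came from the RefSeq promoter table, in which 1913 of 1913 overlapping windows of opposite strands were reverse complements. Intervals are exact Clopper-Pearson or Poisson at 95% and cover counting error only. There was 1 library per assay, so no test was made. Computation used Python 3.11.15, pandas 2.3.3 and scipy 1.17.1, and the counting was tested on simulated data. Every member with gene end summits in both assays, in 1 assay only or with no summit within 10 kb is named. The rule for members uses symbols only, but this gene family, the lists and the motifs were chosen with earlier results of these data known. The ribosomal protein genes and the use of listed starts were chosen after seeing the data. A few genes of the lists are not reported here.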

Additional observations from a re-analysis of the deposited data

How the results depend on the processing

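Of 49 alternative values, 31 lay within 1.5 times the reported count or within the spread of the reported value, and 18 moved further. With the upper 50% of each list, gene end counts fell to 7 in ChIP, 10 in CUT&RUN, 5 in both and 5 with overlapping peaks, and counts within 10 kb to 13, 18 and 8. Within 10 kb these were 26.5% of members in ChIP and 36.7% in CUT&RUN, against 25.6% and 28.4% of all protein-coding genes. With ChIP held to a q of 1e-05, gene end counts were 8 in ChIP, 6 in both and 6 with overlap, and counts within 10 kb were 15 in ChIP and 13 in both. In the gene span alone, 10 members had a ChIP summit, 11 a CUT&RUN summit and 4 both, and within 50 kb 40 had both. Counting a summit only for the nearest protein-coding gene end left 13 members with both within 10 kb. For the other counts given here within the span, 10 kb or 50 kb, the shares of all protein-coding genes were not computed. Whether those counts differ from the genome is therefore not known. A single RUNX core, TGTGGT, was in 8 windows against 16 for all 3 cores. Fewer peaks or a smaller window enter each lower count by construction. Windows of 0.5 and 2 kb, listed starts and rank by pileup changed no gene end count or median rank by more than that limit. The 34 subunits of the 20S and 19S particles alone also stayed within it. Their gene end counts were 14 in ChIP, 17 in CUT&RUN and 10 in both. A count from 34 of the 49 genes is lower by construction, so that this limit does not show whether the shares held. No replicate could be left out, since each assay had 1 library. No paired analysis was possible because the labels give no replicate numbers and each group has 1 sample. The lowest pileup called was 7 in ChIP and 8 in CUT&RUN, and the part of depth in the calls was not tested.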

Other observations

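Some genes of ubiquitin and of its activating enzymes also had gene end summits. Ubb, a polyubiquitin gene, had a pileup of 15 (8.4 to 24.7) in ChIP and 30 (20.2 to 42.8) in CUT&RUN, and Rps27a, which encodes ubiquitin fused to a ribosomal protein, had 8 (3.45 to 15.8) and 17 (9.9 to 27.2). The activating enzyme genes Uba1 and Uba6 had CUT&RUN pileups of 16 (9.15 to 26) and 21 (13 to 32.1) and no ChIP summit at an end. Of 6 proteasome pseudogenes in the gene table, 1 had a ChIP summit within 10 kb and 2 had a CUT&RUN summit. Among all protein-coding genes 40.2% and 45.1% had one, and the share of all pseudogenes was not computed.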
